A study of Mus musculus with 6 samples.

Results

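The clustered protocadherins are cell-adhesion genes that lie head to tail along mouse chromosome 18, here taken as every protein-coding gene of that chromosome whose symbol starts with Pcdha, Pcdhb or Pcdhg. The GENCODE M21 annotation of mm10 holds 57 such genes, of 21698 protein-coding genes used genome-wide, and they divide into 14 alpha, 22 beta and 21 gamma genes. All 57 lie on the plus strand, between 36930184 and 37841873, a span of 911.7 kb. Peaks of open chromatin were counted there when their midpoint fell within this span or within 50 kb of either end. The annotation gives the symbol Pcdha11 to 2 genes, and these are told apart below as the one starting at 37005203 and the one starting at 37010712.

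Each clustered protocadherin begins with a large variable exon that has its own promoter and encodes the extracellular cadherin repeats, the transmembrane segment and part of the cytoplasmic tail. The variable exons of the alpha genes are spliced to a shared set of constant exons at the end of the alpha part, those of the gamma genes to another shared set at the end of the gamma part, and the beta genes have no constant exons. The family is best known from neurons, in which each cell uses a few of the variable promoters, bound by CTCF and cohesin, and displays a combination of proteins that bind their like on other cells. The C-type genes, Pcdhac1, Pcdhac2, Pcdhgc3, Pcdhgc4 and Pcdhgc5, stand last in their parts and are used more uniformly among cells.

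The study profiled open chromatin in the E14.5 palate of C57BL/6 mice with ATAC-seq, a method that uses a transposase to cut DNA not packed into nucleosomes. Shelves were treated with trypsin, the epithelium (basal and superficial layers together) was removed manually, and the rest of the shelf, consisting largely of mesenchymal cells, served as the control. There were 3 libraries of epithelium and 3 of mesenchyme, each from pooled shelves of unmanipulated embryos, and about 20000 cells entered each library. The deposited lists give the position of each peak of short, nucleosome-free fragments and no height, so a value here is the number of peaks or the presence of a peak, and a place without a peak is not thereby closed.

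The 6 lists held 270003 to 349322 peaks, and the read depth behind them is unknown. Markers of the 2 tissues stood near the labels in summed peaks, scaled to the mean list length. The 10 epithelium markers summed to 182 to 190 peaks in epithelium and 133 to 159 in mesenchyme, and the 10 mesenchyme markers to 201 to 247 and 253 to 271. The sums overlapped between tissues for 8 nerve and glia markers (74.0 to 93.4 and 66.1 to 76.0), 5 endothelium markers (119 to 131 and 121 to 139) and 4 immune markers (49.0 to 64.6 and 52.8 to 66.5). No marker of any list was at 0 in any library, and none was called between the tissues by limma at an adjusted p under 0.05. At an unadjusted p under 0.05, 3 epithelium markers, 1 nerve and glia marker and 1 endothelium marker were higher in epithelium, and 2 mesenchyme markers and 1 endothelium marker were lower, while 6.1% of all genes tested were higher and 6.28% lower. Peaks near the markers of each tissue were therefore present in both, and the part of admixed cells in the values below was not tested.

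The cluster's share of all peaks did not differ between the tissues beyond the spread between libraries. The span with its flanks held 111, 109 and 115 peaks in the 3 epithelium libraries and 110, 138 and 122 in the 3 mesenchyme libraries. Per 100000 peaks of the library, epithelium had 41.1, 31.2 and 38.8 and mesenchyme 37.3, 40.4 and 38.7. The second epithelium library had the longest list and the lowest share, and the groups overlapped. The means were 37.0 ± 5.18 in epithelium and 38.8 ± 1.56 in mesenchyme (SD, n = 3), a difference of -1.75 (exact permutation test, two-sided, p = 0.9). With 3 libraries against 3 this exact test cannot give less than p = 0.1. Without the second epithelium library the difference was 1.16, so its sign rests on that library. The density, 10.8 to 13.6 peaks per 100 kb, was close to that of the genome, 9.91 to 12.8 per 100 kb.

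Each peak was then given to the nearest start of a protein-coding gene. Alpha starts received 28, 26 and 28 peaks in epithelium and 28, 36 and 31 in mesenchyme, which is 9.08 ± 1.50 and 9.95 ± 0.534 per 100000 peaks (SD, n = 3, exact permutation p = 0.4). Beta starts received 30, 30 and 31 peaks in epithelium and 34, 30 and 36 in mesenchyme, or 10.0 ± 1.31 and 10.6 ± 1.55 per 100000 (SD, n = 3, exact permutation p = 0.5). Gamma starts received 47, 44 and 50 peaks in epithelium and 40, 61 and 46 in mesenchyme, or 15.6 ± 2.63 and 15.3 ± 2.24 per 100000 (SD, n = 3, exact permutation p = 1). The tissues overlapped in all 3 families, and the gamma difference of 0.29 had no stable sign. It was -0.60 without the first epithelium library, -0.33 without the third, -0.60 without the first mesenchyme library and -0.083 without the third. Without the second epithelium library the beta difference was 0.21 in place of -0.52. The remaining 6 to 11 peaks of each library went to Slc25a2 (a mitochondrial carrier), Taf7 (a subunit of the general transcription factor TFIID) or Diaph1 (an actin-nucleating formin). The starts of Slc25a2 and Taf7 lie in the span, and that of Diaph1 lies beyond the downstream flank. Slc25a2 had 3, 3 and 2 peaks in epithelium and 2, 5 and 3 in mesenchyme, Taf7 1, 2 and 1 and 1, 1 and 2, and Diaph1 2, 4 and 3 and 5, 5 and 4.

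**Figure D1:**
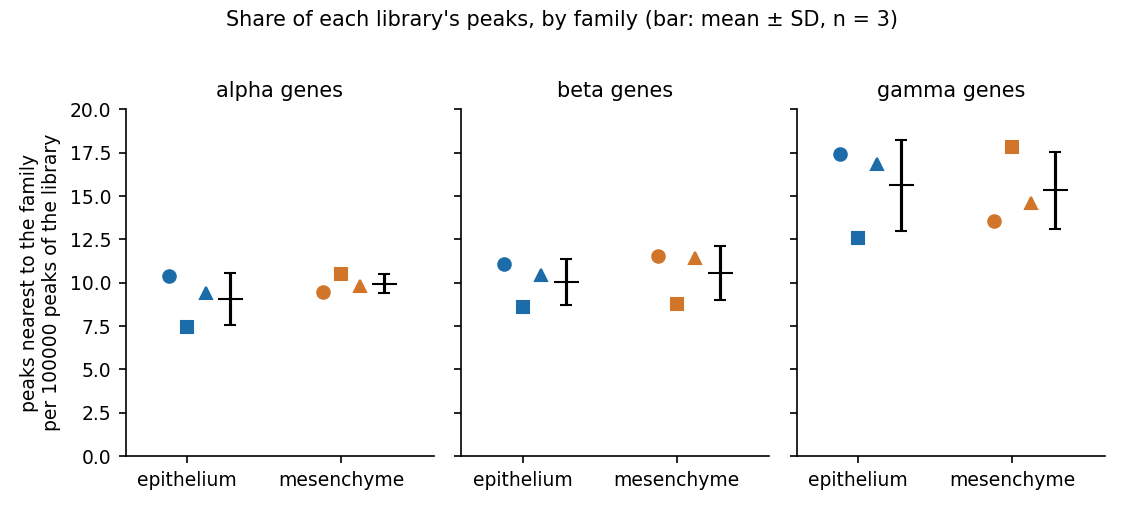
Peaks nearest to alpha, beta and gamma starts per 100000 peaks of each library, on a linear axis from 0. Points are libraries, with circle, square and triangle for libraries 1, 2 and 3 of a tissue, and the bar gives the mean ± SD of 3 libraries. In each family the 2 tissues overlap, and the gamma genes have the highest shares, between 12.6 and 17.8.

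The cluster was uneven along its length, and the densest stretches were the same in every library. The stretch from the Pcdhgc3 start to the end of the Pcdhgc5 exon, 15.8 kb long, held 6, 7 and 7 peaks in epithelium and 7, 11 and 9 in mesenchyme. Its mean density was 49.7 peaks per 100 kb, and peaks covered 45.2% of its bases on average over the 6 libraries. The 19.7 kb from there to the last gamma constant exon held 10, 15 and 12 peaks in epithelium and 10, 14 and 13 in mesenchyme, a mean density of 62.5 per 100 kb with 43.4% of bases covered. The 41.1 kb that lead from Pcdhac2 to the alpha constant exons were by contrast sparse, with 2, 2 and 3 peaks in epithelium and 3, 2 and 2 in mesenchyme, a mean density of 5.67 per 100 kb. The variable arrays lay between these values. Mean densities were 11.1 per 100 kb in the alpha array, 9.89 in the beta array and 14.8 in the array of gamma A and B genes. Peaks covered 4.67%, 4.10% and 5.79% of these 3 arrays. In every library the 2 gamma stretches were the densest of the 11 into which the cluster was divided.

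**Figure D2:**
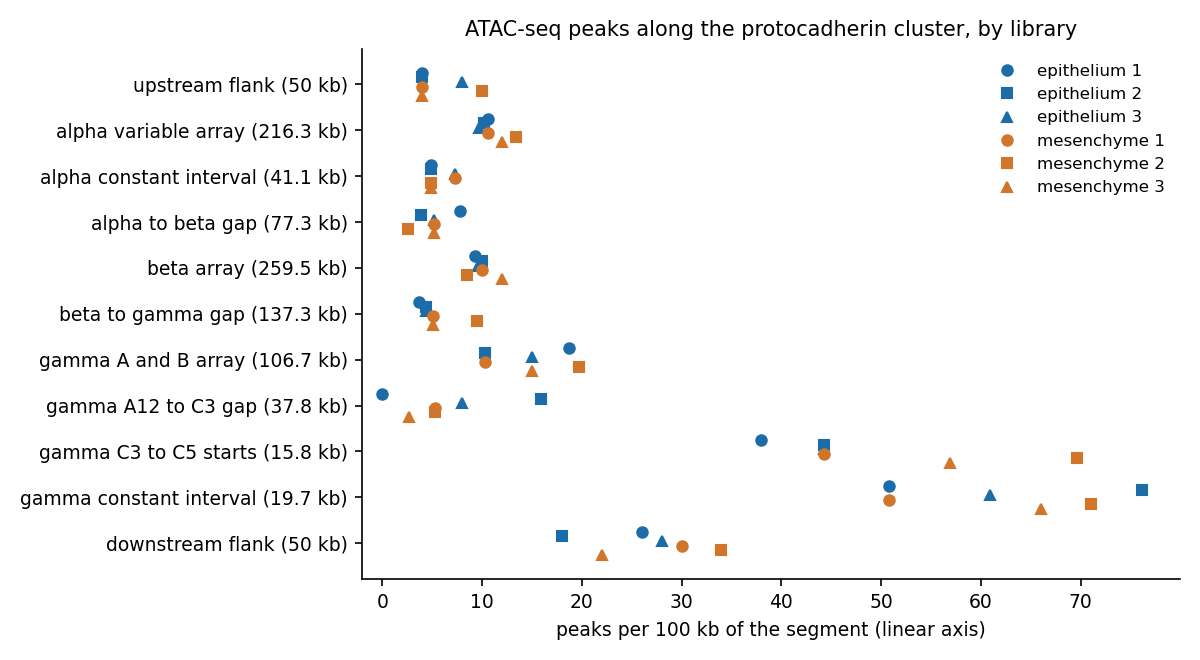
Peaks per 100 kb in 11 stretches of the cluster from its upstream to its downstream flank, with stretch lengths in kb. Each point is 1 library, blue for epithelium and orange for mesenchyme, and the C-type gamma starts and gamma constant interval hold between 38.0 and 76.1 peaks per 100 kb in every library, above all other stretches.

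Scaled to list length, the tissues did not overlap in 2 of the 11 stretches. The share of comparable stretches genome-wide without overlap was not computed, so this count is not a result about the cluster. The gap between the last beta gene and Pcdhga1, which also holds the Slc25a2 and Taf7 starts, had 5, 6 and 6 peaks in epithelium and 7, 13 and 7 in mesenchyme, or 1.86 ± 0.153 and 2.80 ± 0.874 per 100000 (SD, n = 3, exact permutation p = 0.1, 0.55 after Benjamini-Hochberg adjustment over 11 stretches). The stretch of the C-type gamma starts gave 2.20 ± 0.179 per 100000 in epithelium and 2.81 ± 0.425 in mesenchyme (SD, n = 3, exact permutation p = 0.1, adjusted p = 0.55). In the other 9 stretches exact p was 0.4 or more.

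Most protocadherin starts carried no peak. A peak overlapped the 500 bp on either side of the start for 18, 13 and 14 of the 57 members in the epithelium libraries and for 12, 16 and 12 in the mesenchyme libraries. That is 21.1% to 31.6% of members, while 72.8% to 75.4% of all protein-coding starts had such a peak in the same libraries. The share of members was lower by 49.3 ± 4.77 percentage points (SD over 6 libraries), lower in 6 of 6 libraries (exact sign-flip permutation test over libraries, two-sided, p = 0.0312, the smallest 6 libraries can give, adjusted p = 0.0391 over 5 such comparisons). The same genes were read in each library, so this p covers the spread between libraries only. Between tissues the number of member starts with a peak was 15.0 ± 2.65 in epithelium and 13.3 ± 2.31 in mesenchyme (SD, n = 3, exact permutation p = 0.5).

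The members with a constantly marked start were mainly the C-type genes. A start peak was present in all 6 libraries at 6 of 57 members, while 66.4% of all starts had one in all 6. These 6 were the 5 C-type genes and Pcdhgb7, a gamma B gene near the end of its array. At 23 members no library had a start peak, against 17.7% of all starts, and 18 of these 23 were beta genes. The other 5 were Pcdha1, Pcdha9, Pcdhga1, Pcdhga6 and Pcdhga10. The remaining 28 members had a start peak in 1 to 5 libraries, which included 10 alpha, 4 beta and 14 gamma genes.

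**Figure D3:**
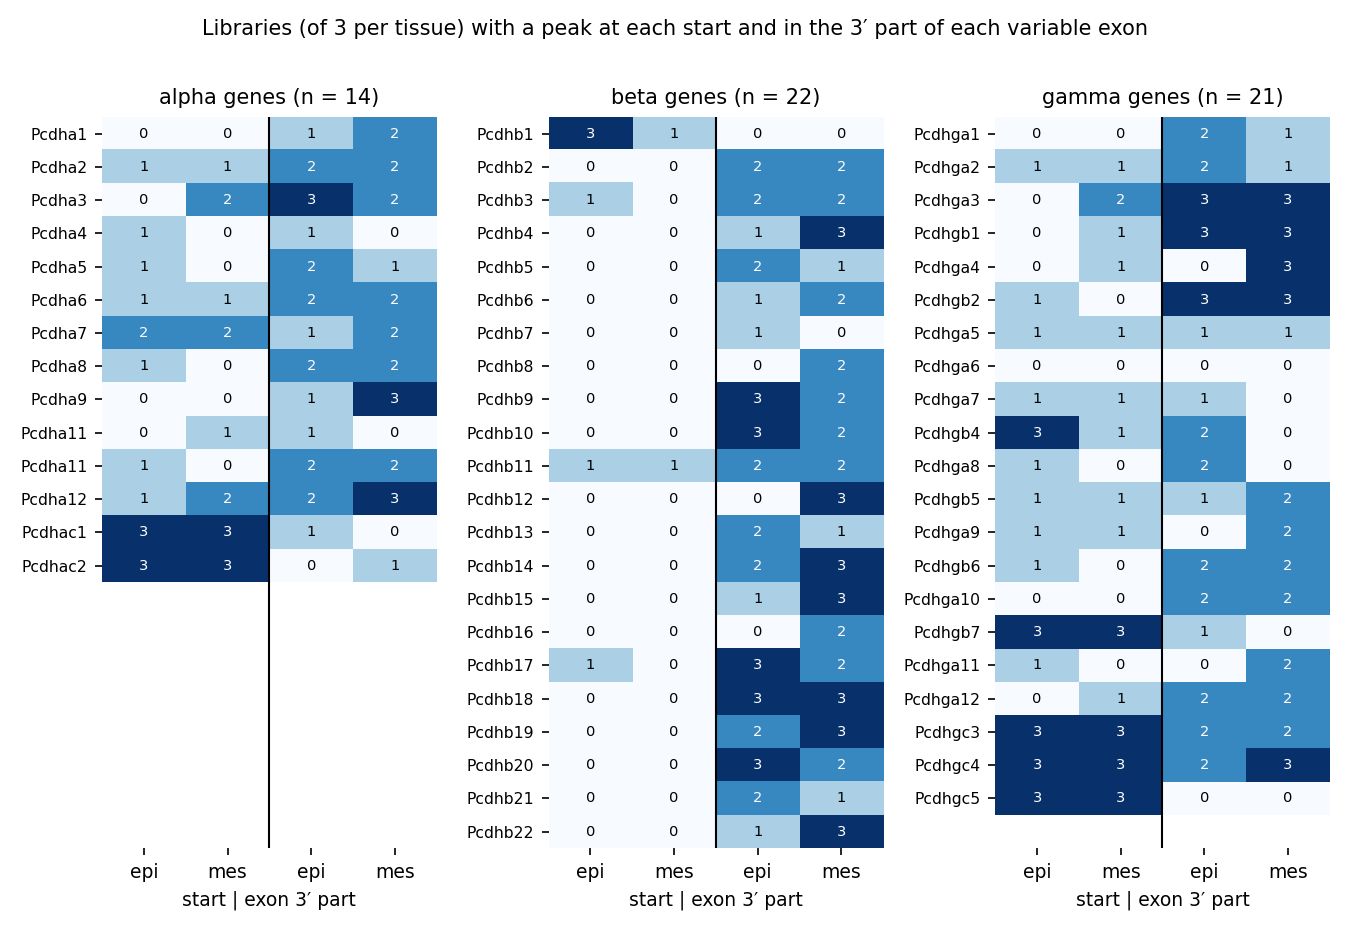
Number of libraries, of 3 per tissue, with a peak within 500 bp of each member's start (left pair of columns) and in the 3′ part of its variable exon (right pair), for epithelium (epi) and mesenchyme (mes), with genes in genome order. Starts are at 3 in both tissues only for Pcdhac1, Pcdhac2, Pcdhgb7, Pcdhgc3, Pcdhgc4 and Pcdhgc5, and 18 of 22 beta starts are at 0 in both, while their exons are mostly above 0. Pcdha11 appears in 2 rows, once for each gene of that symbol.

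At the C-type genes the marked start was part of a wide region. Overlapping peaks of the 6 libraries were merged, and merged regions found in at least 2 libraries were kept. The region at the Pcdhgc3 start was 3390 bp long (chr18:37805871-37809260), that at the Pcdhgc4 start 2834 bp (chr18:37813792-37816625) and that at the Pcdhgc5 start 2099 bp (chr18:37819141-37821239). At Pcdhac2 it was 2266 bp (chr18:37143266-37145531) and at Pcdhac1 1354 bp (chr18:37089646-37090999). The region at the Pcdhgb7 start was 713 bp long (chr18:37751434-37752146). The 6 regions of the C-type gamma stretch had a median width of 1869.5 bp, while the medians were 742 bp in the alpha array, 874.5 bp in the beta array and 686.5 bp in the gamma A and B array. Merging over more libraries can widen a region. A peak in all 6 libraries was present in 4 of the 6 regions of that stretch, and in 6 of 26, 4 of 32 and 5 of 24 regions of the arrays. Widths of start regions genome-wide were not compared.

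Pcdhb1 and Pcdhgb4 were the only members with a start peak in all 3 libraries of one tissue and in at most 1 of the other. Both had it in 3 of 3 epithelium libraries and 1 of 3 mesenchyme libraries. Over all protein-coding starts 0.88% showed this pattern and 1.07% the reverse one, which no member showed. Pcdhb1 stands apart from the other beta genes, upstream of the rest of the array, and it was also the only beta gene with no peak in the 3′ part of its exon in any library.

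Away from the starts, the peaks of the variable arrays gathered at one position of the variable exon. The coding part of these exons was 2316 to 2562 bp long and was cut into 3 equal parts. Of the 52 members that are not C-type, 27, 25 and 31 had a peak midpoint in the 3′ part of the exon in the epithelium libraries and 27, 36 and 29 in the mesenchyme libraries. The 5′ part held a midpoint in 11, 8 and 8 of them in epithelium and in 7, 7 and 8 in mesenchyme. The middle part held one in 10, 8 and 6 and in 8, 11 and 13. The 3′ part was thus marked in 56.1% ± 7.54 of the exons and the 5′ part in 15.7% ± 2.83 (SD over 6 libraries), a difference of 40.4 ± 9.02 percentage points in the same direction in 6 of 6 libraries (exact sign-flip permutation p = 0.0312, adjusted p = 0.0391). The division into parts was chosen after these peaks were seen, and the same exons were read in each library. This p therefore covers the spread between libraries only, and the adjustment does not cover that choice.

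Other long coding exons did not share this position. In 453 coding exons of 2000 to 3000 bp of other genes, the 3′ part held a peak in 31.2% ± 2.09 and the 5′ part in 30.8% ± 1.38 (SD over 6 libraries), a difference of 0.37 ± 2.64 percentage points (exact sign-flip permutation p = 0.781). In the 3′ part the variable exons were above these exons by 24.9 ± 7.40 percentage points, and in the 5′ part they differed from them by -15.1 ± 3.82, each in 6 of 6 libraries (exact sign-flip permutation p = 0.0312, adjusted p = 0.0391, for both). The limits on p given above hold for these comparisons too. The median peak midpoint lay at 68.9% to 71.9% of the exon length in the 6 libraries, which was 658 to 734 bp before the exon end. By family, the median position was 66.8% in alpha exons (89 peaks over the 6 libraries), 72.3% in beta exons (118 peaks) and 72.1% in gamma exons (83 peaks). These peaks were of usual width, with medians of 323 to 392.5 bp, while all peaks had medians of 331 to 344 bp.

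**Figure D4:**
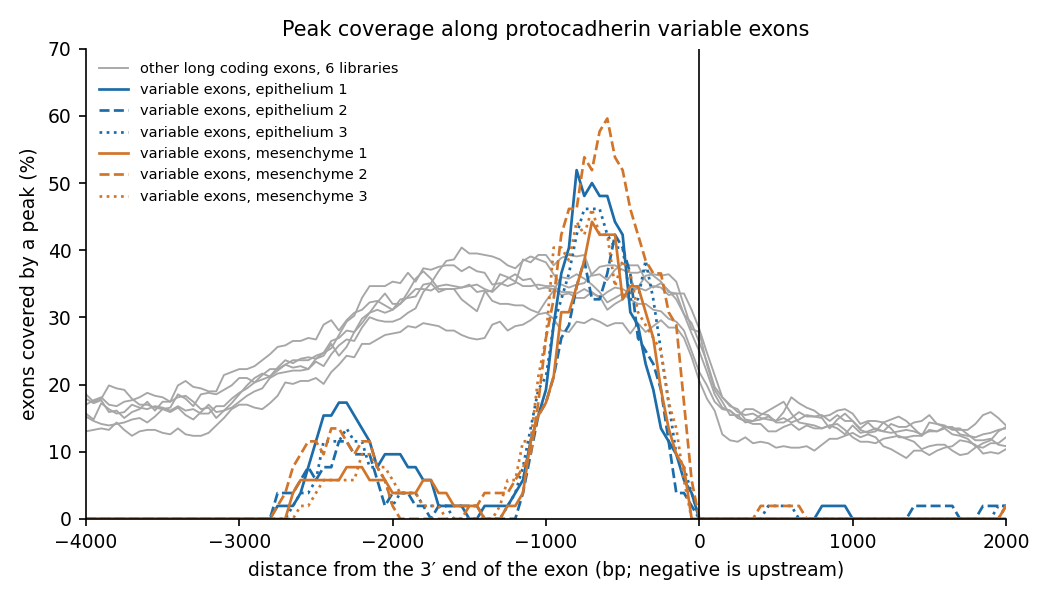
Share of exons covered by a peak against the distance from the exon's 3′ end, in bp on a linear axis, for 52 variable exons (coloured lines, 1 per library) and 453 other long coding exons (grey lines, 1 per library). The variable exons peak between 550 and 800 bp before the exon end in every library, at 42.3% to 59.6%, with a smaller rise near the exon start and few peaks between and outside these positions, while the other exons form a broad plateau.

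Between these positions lay a stretch with few peaks. From 1700 to 1300 bp before the exon end, peaks covered 0% to 3.85% of the 52 variable exons at each point in the 6 libraries and 26.7% to 40.4% of the other long exons. At 3000 bp before the exon end, upstream of the variable exon, they covered none of the 52 members in any library and 17.0% to 22.3% of the other exons. Near the exon start, at 2350 bp before its end, coverage was 17.3%, 11.5% and 11.5% in epithelium and 5.77%, 13.5% and 5.77% in mesenchyme.

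The pattern was spread over the families rather than carried by a few genes. A peak in the 3′ part was found in at least 3 of the 6 libraries at 40 of 57 members, namely 10 of 14 alpha, 18 of 22 beta and 12 of 21 gamma genes, and at 36% of the other long exons. Pcdhb18, Pcdhga3, Pcdhgb1 and Pcdhgb2 had it in all 6 libraries, while 3.97% of the other long exons did. In 50 members it was present in 1 to 5 libraries, against 56.7% of the other long exons. Pcdhb1, Pcdhga6 and Pcdhgc5 had it in none, as did 39.3% of the other long exons. Pcdhga6 was the one member to which no peak at all was given in any library.

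Of the 130 kept regions of the span, 69 had their midpoint in a variable exon, and 56 of the 57 exons held at least 1. In 45 of the 69 the midpoint was in the 3′ part. The region in the Pcdhb18 exon (chr18:37490942-37491917) was centred at 76.2% of the exon, that in Pcdhga3 (chr18:37675980-37676734) at 77.2%, that in Pcdhgb1 (chr18:37681756-37682718) at 74.7% and that in Pcdhgb2 (chr18:37691331-37692326) at 77.6%. Among alpha exons without the C-type, regions present in all 6 libraries stood at 66.5% of Pcdha6, 76.6% of Pcdha8, 76.6% of Pcdha9 and 75.1% of Pcdha12. Further such regions stood at 78.1% of Pcdhb9, 70.1% of Pcdhb11, 70.3% of Pcdhb17 and 73.0% of Pcdhgb6. In these exons the merged region held a peak of each library, but not every library had a midpoint in the 3′ part.

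Over the 52 exons GC content was highest in the 3′ part, and the share of sequence found once in the assembly was highest there in alpha exons only. Over the 52 exons, median GC content was 50.7% in the 5′ part, 49.0% in the middle and 57.4% in the 3′ part, and in the other long exons 52.1%, 51.9% and 52.1%. By family, median GC from 5′ to 3′ was 52.4%, 51.5% and 58.0% in alpha exons and 48.5%, 48.9% and 57.4% in beta exons. Gamma exons had 53.1%, 48.1% and 55.9%, and C-type exons 56.1%, 51.6% and 56.2%. The median ratio of observed to expected CpG over the 52 exons was 0.586, 0.504 and 0.480, lowest in the 3′ part. The share of 50-letter words found once in the mm10 assembly, a measure of how surely a read is placed, averaged 75.6%, 81.5% and 93.6% along alpha exons from 5′ to 3′. It averaged 92.4%, 95.1% and 90.8% along beta exons and 95.8%, 97.7% and 92.0% along gamma exons, so that in these 2 families the 3′ part was the least unique. In the C-type exons it was 100% throughout, and over the whole span 86.7%. Of the 4 exons with a peak midpoint in the 3′ part in all 6 libraries, Pcdhgb1 and Pcdhgb2 had 3′ parts with 57.8% and 58.0% of words found once and Pcdhb18 81.6%, so that reads there are placed less surely. The part of composition and of read placement in the peak positions was not tested.

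At the starts, GC content set the C-type genes apart, and the CpG ratio did not. The 1000 bp around the start had a median GC content of 45.1% in alpha, 41.4% in beta and 46.6% in gamma genes without the C-type, and 55.9% in the C-type genes, against 54.8% over all starts. The ratio of observed to expected CpG was 0.685, 0.379, 0.594 and 0.672 in these groups and 0.554 over all starts, lowest in beta genes and highest in alpha genes.

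The letters CNAGGNGGC, a short core of the motif bound by CTCF, were searched on both strands. They occurred in the window from 250 bp before to 50 bp after the start at 3 of 57 members (5.26%) and at 9.63% of all starts. Within 500 bp centred on the kept regions they occurred in 7 of 130 regions of the span (5.38%) and in 8.95% of all 342690 kept regions of the genome. In the exons the letters occurred in the 3′ part of 12 of 22 beta genes (54.5%), in 1 of 12 alpha and in none of 18 gamma genes, while 15.5% of the other long exons had them in that part. Only 2 of the 69 regions in variable exons (2.90%) had them within their central 500 bp. A match is a description of these letters and not of binding.

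Between the tissues the number of marked exons did not differ beyond the spread between libraries. The number of members with a peak in the 3′ part, C-type genes included, was 28, 27 and 33 in epithelium and 28, 39 and 31 in mesenchyme, or 29.3 ± 3.21 and 32.7 ± 5.69 (SD, n = 3, exact permutation p = 0.6). Beta exons were marked 13, 10 and 13 times in epithelium and 14, 16 and 14 times in mesenchyme, which did not overlap (exact permutation p = 0.1, the smallest possible). These counts were not scaled to list length, and this p was not adjusted for the other exon comparisons. The share of comparable exon sets without overlap was not computed, so this is not a result about beta exons. Alpha exons without the C-type gave 5, 7 and 8 in epithelium and 8, 9 and 4 in mesenchyme, and gamma exons 9, 8 and 10 and 5, 11 and 11, both overlapping (exact permutation p = 1 for each). By peak midpoint, Pcdhb12 and Pcdhga4 had the 3′ part marked in 3 of 3 mesenchyme and 0 of 3 epithelium libraries, a pattern held by 0.883% of the other long exons, and no member had the reverse. At Pcdhb12 this rests on the midpoint, since the merged region there (chr18:37437043-37438010, centred at 72.8% of the exon) also held a peak of the second epithelium library.

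Differences at single members were fitted with limma on log2(scaled peaks + 1) over the 19729 genes whose mean across libraries reached 1 peak, with Benjamini-Hochberg adjustment. The scale understates changes of genes with few peaks. Of the 57 members 36 had enough peaks to be tested, 12 alpha, 14 beta and 10 gamma, and the other 21 had fewer. No member was called at an adjusted p under 0.05 in either direction. Genome-wide 0.112% of genes were called higher and 0.0456% lower in epithelium. At an unadjusted p under 0.05, 1 member was higher and 0 were lower, while genome-wide 6.1% were higher and 6.28% lower. The median log2 difference, epithelium minus mesenchyme, was -0.01 over the 36 members and -0.02 over all genes, with 18 members above 0 and 18 below. The median SE was 0.40 over the members and 0.28 over all genes.

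**Figure D5:**
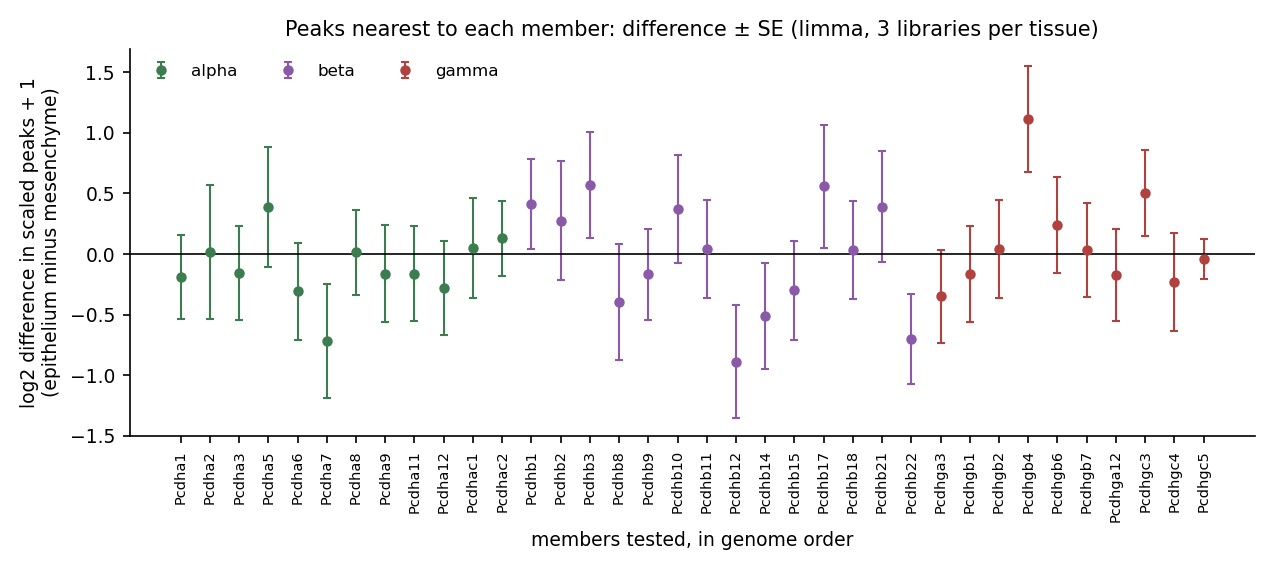
Log2 difference in scaled peaks + 1 between epithelium and mesenchyme for the 36 members tested, in genome order, on a log2 axis, with bars of ± 1 SE from limma (3 libraries per tissue). Differences run from -0.89 for Pcdhb12 to 1.11 for Pcdhgb4, on both sides of 0 in every family.

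Among alpha genes Pcdha7 differed most. It had 3, 0 and 2 peaks in epithelium and 3, 3 and 3 in mesenchyme, a log2 difference of -0.72 ± 0.47 (SE, limma adjusted p = 0.579), and its values overlapped because 1 epithelium library reached 3. Pcdha6 stood at -0.31 and Pcdha12 at -0.28, and Pcdha1, the first gene of the cluster, at -0.19 with 3, 3 and 5 peaks in epithelium and 3, 7 and 4 in mesenchyme. On the other side Pcdha5 had 2, 2 and 0 peaks and 1, 0 and 1, a log2 difference of 0.39 ± 0.50. The C-type genes of this part were at 0.05 for Pcdhac1 and 0.13 for Pcdhac2, and Pcdha2 at 0.02. Pcdhac2, the last of the alpha genes, had 5, 4 and 6 peaks in epithelium and 4, 5 and 5 in mesenchyme.

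The most negative difference of all members was that of a beta gene. Pcdhb12 had 0, 2 and 0 peaks in epithelium and 2, 1 and 2 in mesenchyme (log2 difference -0.89 ± 0.47, SE, limma adjusted p = 0.462). Pcdhb22, the last beta gene, had 2, 2 and 4 peaks in epithelium and 5, 8 and 3 in mesenchyme (-0.70 ± 0.37, limma adjusted p = 0.468). The tissues overlapped in both genes, and at Pcdhb12 all 3 mesenchyme values lay within the epithelium range. Pcdhb14 was at -0.51 and Pcdhb8 at -0.40. On the other side stood Pcdhb3 at 0.57, Pcdhb17 at 0.56, Pcdhb1 at 0.41 and Pcdhb21 at 0.39. Pcdhb1, the first beta gene, had 5, 4 and 5 peaks in epithelium and 6, 2 and 3 in mesenchyme, so the tissues overlapped.

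Among gamma genes Pcdhgb4 was the member with an unadjusted p under 0.05. It had 2, 1 and 2 peaks in epithelium and 0, 1 and 0 in mesenchyme, a log2 difference of 1.11 ± 0.44 (SE, limma adjusted p = 0.303). One library of each tissue had 1 peak, and its start peaks described above are among those counted here. Its neighbour Pcdhga8 had 3, 1 and 0 peaks in epithelium and 0 in each mesenchyme library and had too few to be tested. Pcdhgc3 stood at 0.51, Pcdhgb6 at 0.24 and Pcdhgb2 at 0.04. Below 0 were Pcdhga3 at -0.35, Pcdhgc4 at -0.23, Pcdhga12 at -0.18 and Pcdhgb1 at -0.17. Pcdhga1, the first gamma gene, had 1, 0 and 2 peaks in epithelium and 0, 1 and 1 in mesenchyme. Pcdhgc5, the last, had by far the most peaks of any member, 23, 24 and 26 in epithelium and 23, 30 and 26 in mesenchyme, and a log2 difference of -0.04 ± 0.17. Its start is the nearest for the gamma constant interval and most of the downstream flank, so these peaks are not all at the gene's promoter.

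Regions found in one tissue alone were few. Of the 130 kept regions, 31 (23.8%) had a peak in all 6 libraries, beside 19.1% of the 342690 kept regions genome-wide. None had a peak in all 3 epithelium libraries and no mesenchyme library, a pattern of 2.98% of regions genome-wide, and 3 had the reverse, a pattern of 2.2%. These are counts of presence with no test, since an exact test of 3 libraries against 3 cannot reach 0.05. The region in the 3′ part of the Pcdhga4 exon (chr18:37687026-37687737) was 712 bp long and centred at 82.0% of the exon. The other two lay in pseudogenes that are not members. One was in Gm36858 between Pcdha7 and Pcdha8 (chr18:36981506-36982141), centred 1766 bp from the pseudogene's start, and the other in Pcdhgb8, a polymorphic pseudogene of the gamma part (chr18:37763290-37763950), centred 1819 bp from its start.

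A fit over windows of 50 kb, which needs no assignment to genes, gave the same absence of calls. All 21 windows of the cluster had enough peaks to be tested, and 0 were called by limma at an adjusted p under 0.05, against 0.00481% of 41547 windows called higher and 0% called lower in epithelium. At an unadjusted p under 0.05, 0 of the 21 were higher and 1 was lower, beside 7.04% and 5.3% of all windows. That window, chr18:37550001-37600000 in the gap between beta and gamma genes, had 2, 0 and 3 peaks in epithelium and 3, 5 and 4 in mesenchyme (log2 difference -1.02 ± 0.48, SE, limma adjusted p = 0.391). The values overlapped at 3 peaks.

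Protocadherins outside the cluster, and genes listed as regulators or partners of the clustered ones, were read from lists. Of 12 protocadherins outside the cluster, 14 regulators of its promoters (CTCF, cohesin with its loader and release factor, and silencing factors) and 10 partners of the cytoplasmic domains, all 36 were tested and 0 were called in either direction by limma. At an unadjusted p under 0.05, 3 of the 12 other protocadherins were higher in epithelium and none of the 36 was lower, beside the 6.1% and 6.28% of all genes given above. The median log2 difference was 0.20 for the other protocadherins, 10 of 12 above 0, and 0.00 and -0.01 for the regulators and partners. Pcdh19, a delta-type protocadherin of homophilic adhesion, had 9, 12 and 9 peaks in epithelium and 5, 4 and 3 in mesenchyme (log2 difference 1.20 ± 0.29, SE, limma adjusted p = 0.0966), with every epithelium library above every mesenchyme library. The most negative of that list was Pcdh1 at -0.07. Among regulators Stag2, a cohesin subunit, was at 0.63 and Dnmt3b, a DNA methyltransferase, at -0.51. Among partners Abi2 was at 0.39 and Cyfip2 at -0.35, both parts of the WAVE complex that drives actin assembly.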

How the data were processed

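Per the labels and methods, reads were trimmed (Trimmomatic 0.38), mapped to mm10 (Bowtie2 at its defaults, which keep 1 placement of a read that has several) and cleared of PCR duplicates (SAMtools) by the authors, and MACS2 2.1.1 was run without a model or local background on the short nucleosome-free fragments of each library. deepTools 2.0 is also named in the submitters' processing notes. The deposited lists give chromosome, start and end of each peak, with no score. The p or q threshold for peaks and any filter on mapping quality are not given in the sources used here. The study's comparison with DiffBind needs reads, and peak counts replaced it.

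Peaks were assigned by midpoint to the nearest of 21698 protein-coding starts within 100 kb (GENCODE M21, predicted models overlapping a named gene left out, 3 of them in the span). Per-library values were compared by exact permutation, two-sided. Genes and 50 kb windows with a mean of at least 1 peak were fitted by limma 3.58.1 (R 4.3.3) on log2(peaks scaled to mean list length + 1) with a mean trend, Benjamini-Hochberg threshold 0.05. Other steps used Python 3.11.15, numpy 2.4.6, pandas 2.3.3 and matplotlib 3.10.9. Sequence measures came from GRCm38.p6. No sequence of a member is shown.

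Members, lists and tests were chosen with earlier results of these data known. Members named are those called, the 4 largest differences in each direction per family, those with a start peak in all 6 libraries or in all 3 of a tissue and at most 1 of the other, and the first and last of each family. The other genes to which peaks of the span or its flanks were given are also named. Of listed genes, those called and the extreme in each direction of each list are named. Others named, in particular for their exon peaks, were chosen after their values were seen, as was the division of exons into parts. The control tissue was what remained of the peeled shelves, so the tissues may share embryos, but no label ties libraries by number. The p-values measure the spread between these libraries, which may be technical.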

Additional observations from a re-analysis of the deposited data

How the results depend on the processing

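Positions were all that could be compared, so depth and peak height limit every value, and a tissue difference smaller than the spread between libraries was not detectable. The differences in share per 100000 peaks (epithelium minus mesenchyme, -1.75 for the cluster and 0.29 for gamma starts) changed sign in several alternatives. The exact permutation p could not fall under 0.1 in any of these runs, so it cannot decide whether the changes exceed the spread between libraries. The cluster difference was 0.44 as covered base pairs. The gamma difference was -2 peaks without scaling to list length, -0.065 with peaks of at least 300 bp and -0.28 with members alone as starts. Leaving out each library in turn gave -3.79 to 1.16 for the cluster, -1.51 to -0.05 for alpha, -1.42 to 0.21 for beta and -0.60 to 1.80 for gamma starts. The cause was not tested.

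Regions with peaks in 1 tissue alone, 0 for epithelium and 3 for mesenchyme, numbered 3 and 9 when 1 peak was allowed in the other tissue (2.31% and 6.92% of kept regions, 5.67% and 5.98% genome-wide). With peaks of at least 300 bp there were 1 epithelium region and 2 mesenchyme regions. That was 1.11% and 2.22% of kept regions in the span, and 3.84% and 2.53% genome-wide. With each library left out in turn, regions of 1 tissue alone numbered 0 to 3 and 5 to 10, a rule that asks for fewer libraries. These were 0% to 2.4% and 4% to 8.26% of kept regions in the span, and 4.15% to 6.75% and 3.39% to 6.50% genome-wide. The differences in marked starts (0.17 to 3.00) and in exons with a 3′ peak (-5.67 to -0.17), an alternative chosen after seeing the data, kept their sign without each library.

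Calls of members and windows stayed at 0 in every alternative run. Many of these runs called 0 genes or 0 windows genome-wide, as given below, and there 0 calls in the cluster had to follow. For listed genes only 2 alternatives were run, without scaling and with the replicate block. They too gave 0 calls, but these fits called 0 genes genome-wide. The fit with a replicate block also called 0 members. After each tissue's mean was subtracted gene by gene, same-numbered libraries of the tissues correlated at 0.0218, 0.0194 and 0.000148 over genes. Libraries of unlike number were not compared, so these values do not decide whether the numbers pair the libraries. Genome-wide, the number of genes called was 31 in the reported fit, 17 without a filter on few peaks, 24 with a pseudocount of 0.5, 193 with peaks given to the nearest start on each side, and 0 without scaling or with the replicate block. Leaving out any 1 of the epithelium libraries or the second mesenchyme library gave 0 genes. Leaving out the first mesenchyme library gave 1 gene and leaving out the third gave 39. The number of windows called was 2 in the reported fit, 0 with windows of 20 kb or without scaling, 1 with the replicate block and between 0 and 5 without a library.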
